A study of Homo sapiens with 24 samples.

Results

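The response of SJSA-1 cells to 100 nM THZ2 was taken from the 3 arrays of SJSA-1 with 100 nM THZ2 and the 3 arrays of SJSA-1 with DMSO, 6 of the 24 arrays of the series, chosen by their titles. SJSA-1 is an established human osteosarcoma cell line that carries an amplified stretch of chromosome 12q with MDM2 and CDK4. THZ2 is a covalent inhibitor of the kinase CDK7, and DMSO, its solvent, was the control. Both groups were kept in the same medium with serum, were treated for 6 h, and received no other agent or genetic change that the labels name. The other arrays compared below are those of SJSA-1 with 25 and 400 nM THZ2 and those of U2-OS, another established osteosarcoma line, with DMSO and 100 nM THZ2, 3 arrays each. Arrays of U2-OS with 25 and 400 nM THZ2 enter the filter, the choice of probe sets and the estimate of spread. These rest on all 24 arrays. The labels do not say whether the 3 arrays of a group came from separate cultures. A p-value therefore measures only the spread between arrays within the groups of all 24 arrays, which may be technical. The treatment notes describe RNA taken from the cultured cells with TRIzol, while the extraction notes name a column kit and a cortex sample, and the sources used here do not settle the difference.

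CDK7 forms a complex with cyclin H (CCNH) and MNAT1 and belongs to TFIIH, a general transcription factor that opens promoter DNA. It phosphorylates the tail of RNA polymerase II at the start of transcription and activates other cyclin-dependent kinases, among them CDK9, the kinase that releases paused polymerase, and the cell cycle kinases. An mRNA with a short lifetime falls within hours when its synthesis stops, whereas a stable mRNA stays near its level. On a PrimeView array the amount of a transcript is read from the brightness of 1 or more sets of short probes, so levels of different genes cannot be compared with each other.

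The deposited values were intensities on a linear scale. Median intensity per array lay between 24.8 and 25.5 with DMSO and between 23.9 and 24.1 with 100 nM THZ2. DMSO replicate 1 stood apart: the SD of the log2 difference between arrays was 0.319 and 0.296 for its pairs and 0.236 for DMSO replicates 2 and 3. The control transcripts spiked into the RNA ahead of labelling had mean log2 intensities of 6.54, 7.01 and 7.33 with DMSO and 7.60, 7.45 and 7.45 with 100 nM THZ2. Scaling to these controls carries their spread between arrays into every gene, and how many calls were lost through this was not tested. Since these controls were spiked into RNA, their signal alone does not give the number of cells. In these bulk samples fewer cells and less RNA per cell cannot be told apart. Osteoblast and mesenchyme markers summed to 9328 to 9777 with DMSO and 9340 to 9529 with 100 nM THZ2, with 9 and 11 of the 13 on the array above the floor for weak signals. Nervous tissue markers summed to 282 to 312 with DMSO and 360 to 379 with 100 nM THZ2, with 9 and 10 of 13 above the floor. Blood markers summed to 212 to 239 and 274 to 298, with 6 of 10 above the floor in both groups, and epithelial markers to 3580 to 4760 and 4672 to 5308, with 8 of 10. Of the tested markers 4 of 12 nervous, 5 of 8 blood and 4 of 9 epithelial ones rose on the deposited scale, and 0 of each with spike-in scaling. Without DMSO replicate 1 these were 1, 3 and 2, and the blood count was also 3 without DMSO replicate 3 and without 100 nM replicate 1 or 3. The part of these markers in the results was not tested.

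Of 16164 genes tested, 4101 fell and 4608 rose with 100 nM THZ2, which is 25.4% and 28.5% of all genes, at a limma adjusted p under 0.05 (Benjamini-Hochberg). Changes of at least 2-fold were mostly falls. At least 2-fold, 1433 genes fell (8.87%) and 123 rose (0.761%), and at least 4-fold 265 fell and 16 rose. Of the 1556 changes of at least 2-fold, 1097 were in genes with several probe sets above the floor. In 317 of these a probe set went the other way. In 185 of the 1556 a group mean lay under the floor, so their size is not exact. The median log2 change of all genes was 0.12, with quartiles at -0.28 and 0.30. In 8824 genes (54.6%) the intensities of the groups did not overlap. With arrays scaled to the spike-ins the median of all genes moved by over 0.1, to -0.42, and 1.5% of 4609 called genes were higher, against 52.9% of 8709 on the deposited scale. At least 2-fold, 3148 genes fell and 44 rose with that scaling. Some rises named below did not pass with that scaling. Among them are those of MYC, POLR2A, CCNT2, CPSF6, MED28, HDAC8, CDKN1C, HES1, KLF5, JUNB, SGK1, SNORA72, CTSD, ALPL and HEXIM1. Whether the rise of H2BC4 passed with it is not given here.

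**Figure D1:**
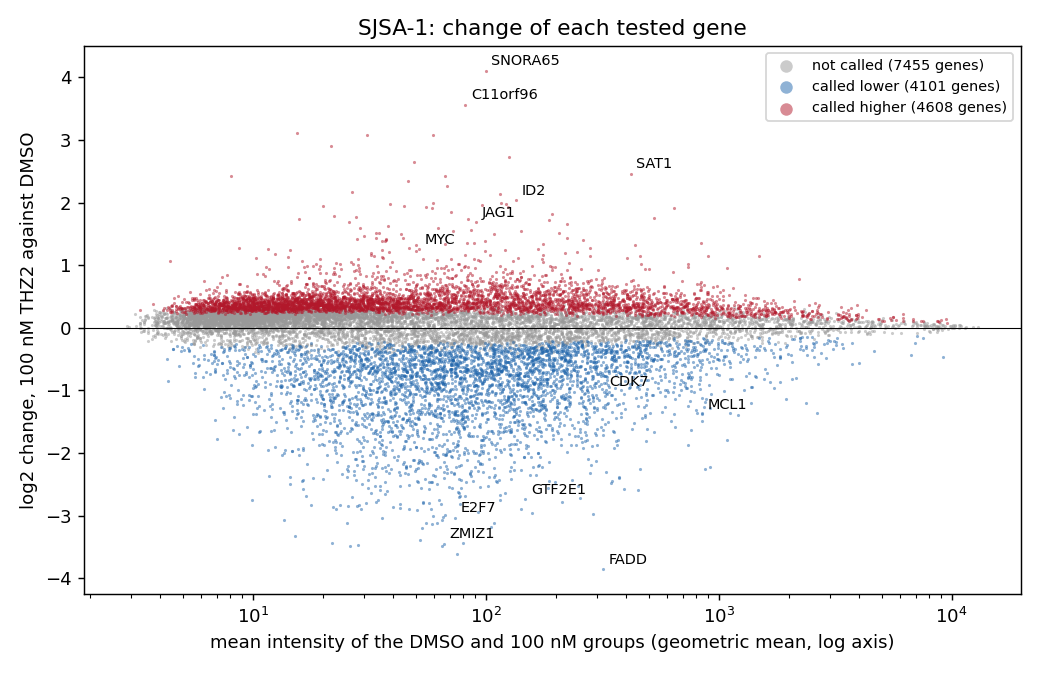
Each of the 16164 tested genes by its mean intensity over both groups (x axis, log scale) and its log2 change with 100 nM THZ2 against DMSO in SJSA-1 (y axis, n = 3 arrays per group). Red points are the 4608 genes called higher, blue points the 4101 called lower and grey points those not called; the largest fall is that of FADD at -3.86 and the largest rise that of SNORA65 at 4.10.

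The gene with the largest fall among those measured above the floor in both groups was FADD, the adaptor that joins death receptors to caspase 8. Its intensities were 1046, 1201 and 1361 with DMSO and 67.6, 115 and 72.5 with 100 nM THZ2. All treated arrays lay far below all DMSO arrays, and the change was -3.86 ± 0.16 on the log2 scale (limma adjusted p = 7.35e-17), or 14.5-fold lower. This holds for the brightest of its 3 probe sets above the floor, while 1 other probe set read 0.07. ZBED5, a gene derived from a transposase, had intensities of 296, 215 and 280.1 with DMSO and 22.6, 23.1 and 18.5 with 100 nM THZ2 and fell by 3.62 ± 0.18. DHX32, a helicase-like protein, fell by 3.48 ± 0.14 from 215 ± 23.1 to 19.6 ± 4.49. ZMIZ1, a coregulator of transcription, gave 212, 236 and 206 with DMSO and 20.5, 22.5 and 17.1 with 100 nM THZ2, and fell by 3.45 ± 0.12 with both of its probe sets falling. Again no treated array came near the DMSO range.

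Further genes with falls of this size belong to different processes. NABP1, which binds single-stranded DNA in repair, fell by 3.44 ± 0.11 from 263 ± 24.4 to 24.2 ± 1.94, and CYREN, a regulator of end joining at DNA breaks, fell by 3.12 ± 0.18 from 163 ± 17.5 to 18.9 ± 3.74. MTCL1 and NAV3, both of microtubules, changed by -3.18 ± 0.13 and -3.38 ± 0.17. The ubiquitin ligase RNF111, known for its part in TGF-beta signalling, fell by 3.13 ± 0.20, and the ribosomal oxygenase RIOX1 fell by 3.12 ± 0.13. MOCS3, which activates sulfur carriers for molybdenum cofactor and tRNA thiolation, gave 139, 172 and 169 with DMSO and 19.7, 14.5 and 18.4 with 100 nM THZ2 and fell by 3.20 ± 0.16. ZNF232, a zinc finger gene, fell by 3.07 ± 0.11. E2F7, a repressor of the cell cycle gene programme, gave 232, 212 and 186 with DMSO and 28.2, 29.9 and 20.0 with 100 nM THZ2, a change of -3.03 ± 0.15, and E2F5 gave 199, 204 and 159.8 with DMSO and 24.9, 22.6 and 21.3 with 100 nM THZ2, a change of -3.03 ± 0.14. In none of these genes did the groups overlap.

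Some genes fell below the floor of 12.7, the 30th percentile of all deposited values, and only a bound on their fall can be given. MTFR2, a regulator of mitochondrial fission, went from 103 ± 8.92 to 12.5 ± 0.228 and was at least 8.04-fold lower. ZNF827 was at least 7.21-fold lower, and MRTFB, a coactivator of serum response factor, at least 6.76-fold. TIGD2 was at least 6.18-fold lower. ZNRF3, a ubiquitin ligase that removes WNT receptors, had intensities of 38.3, 48.8 and 32.2 with DMSO and 4.38, 4.38 and 5.31 with 100 nM THZ2, at least 3.08-fold lower.

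**Figure D2:**
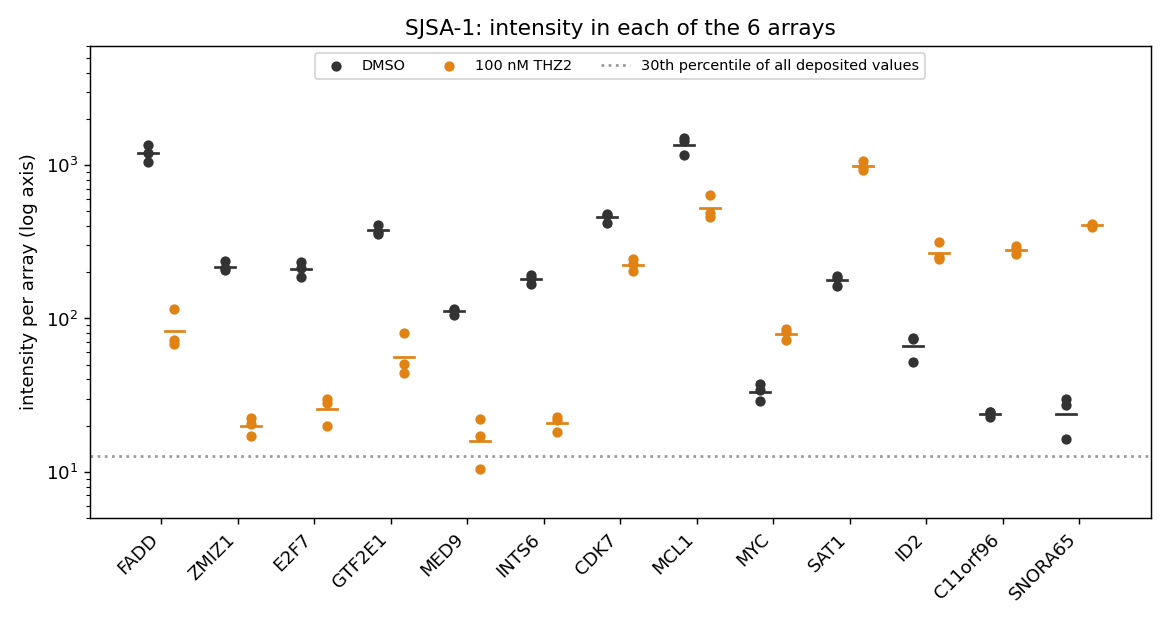
Intensity of 13 genes in each of the 3 DMSO arrays (dark points) and the 3 arrays with 100 nM THZ2 (orange points) of SJSA-1, on a log axis; short lines are the geometric mean of each group and the dotted line is the floor of 12.7. In all 13 genes the points of the groups do not overlap: the first 8 genes lie lower with 100 nM THZ2 and the last 5 (MYC, SAT1, ID2, C11orf96 and SNORA65) lie higher.

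Fewer genes rose strongly, and many of these are small nucleolar RNAs, which guide the chemical modification of ribosomal and spliceosomal RNA and are mostly cut from introns of other genes. SNORA65 had intensities of 16.4, 27.1 and 29.9 with DMSO and 416, 410.1 and 396 with 100 nM THZ2, and rose by 4.10 ± 0.19 (limma adjusted p = 5.85e-16). SNORA84 gave 16.9, 23.8 and 20.8 with DMSO and 182, 189 and 147 with 100 nM THZ2 and rose by 3.08 ± 0.14. SNORA3B, SNORA26 and the Cajal body RNA SCARNA14 rose by 2.14 ± 0.10, 1.97 ± 0.16 and 2.42 ± 0.15. SNORA74A and SNORD12B were below the floor with DMSO and were at least 7.01-fold and 3.57-fold higher. Of 39 small nucleolar and Cajal body RNAs tested, 28 rose and 0 fell, against 28.5% and 25.4% of all genes. Over the list of these RNAs and their SNHG host genes, 31 of 48 rose with a median change of 0.56, and with arrays scaled to the spike-ins 13 still rose and 5 fell. Whether such probe sets read the mature small RNA or an unspliced precursor was not tested.

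The host genes named SNHG moved in both directions. SNHG17 rose by 2.64 ± 0.14, from 19.7 ± 3.66 to 123 ± 21.9, and SNHG9 by 1.66 ± 0.11. SNHG7 had intensities of 843, 989 and 982 with DMSO and 302, 326 and 265 with 100 nM THZ2 and fell by 1.66 ± 0.11, and SNHG12 fell by 1.35 ± 0.10. Of 9 SNHG genes tested, 3 rose and 5 fell. By position in the RefSeq table, which was used without strand, 36 of the small RNAs lie within a tested gene. Of the 25 of these that rose, the surrounding gene rose for 8, fell for 9 and passed in neither direction for 8. SCARNA14 lies within TIPIN, which fell by 0.92 ± 0.13, and SNORA30, which rose by 1.41 ± 0.16, lies within the chromatin remodeller gene SRCAP, which fell by 1.28 ± 0.14. SNORA3B lies within RPL27A, a ribosomal protein gene that did not pass at -0.11 ± 0.093, and SNORA72, which rose by 0.92 ± 0.15, within RPL30, which did not pass at 0.043 ± 0.034.

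Among protein-coding genes C11orf96 rose most, with intensities of 22.6, 24.4 and 24.4 with DMSO and 284, 296 and 263 with 100 nM THZ2, a rise of 3.56 ± 0.10 or 11.8-fold. SAT1, which limits the rate of polyamine breakdown, gave 184, 163 and 190.0 with DMSO and 1060.1, 929 and 969 with 100 nM THZ2 and rose by 2.46 ± 0.084. RSRP1, a protein rich in arginine and serine, rose by 2.72 ± 0.14 from 49.5 ± 10.2 to 321 ± 18.4. ID2, which blocks the DNA binding of helix-loop-helix factors, gave 73.0, 52.3 and 74.5 with DMSO and 246, 251 and 317 with 100 nM THZ2 and rose by 2.03 ± 0.19. The groups were separate for each of these. The immediate early gene relative IER5L rose by 1.99 ± 0.17 and the small GTPase gene RRAD by 1.99 ± 0.14. USP45, a deubiquitinase, rose by 2.34 ± 0.13 and VPS50, of an endosomal recycling complex, by 1.98 ± 0.17, but each has another probe set that went the other way, down to -0.58 and -0.23. The histone gene H2AC17 gave 24.9, 36.8 and 32.7 with DMSO and 153, 139 and 154 with 100 nM THZ2 and rose by 2.26 ± 0.13. Histone genes are close to identical in sequence, so its probe sets may read several of them.

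The letters of the promoters are shown for genes at both ends of the response, since the share holding the letters TATAAA was unequal among them. These are the letters of a TATA box, the binding site of the TATA-binding protein. The 150 bases before the start are from RefSeq, build GRCh38.p14, 5′ to 3′ on the gene's own strand, with TATAAA or CCAAT, on either strand, in capitals. FADD has the largest fall among genes above the floor in both groups. H2AC17 has the largest rise among the 16 risen genes with TATAAA given below. Larger rises, such as that of C11orf96, are not shown, so the printed promoters do not represent the shares below. JUNB, an immediate early gene, was taken after its values were seen. They are chr6:27893186-27893335 (minus strand) for H2AC17, chr19:12791336-12791485 (plus strand) for JUNB and chr11:70203146-70203295 (plus strand) for FADD.
H2AC17: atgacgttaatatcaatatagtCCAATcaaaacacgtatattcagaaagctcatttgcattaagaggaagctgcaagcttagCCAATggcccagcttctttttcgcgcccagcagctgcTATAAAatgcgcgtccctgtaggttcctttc
JUNB: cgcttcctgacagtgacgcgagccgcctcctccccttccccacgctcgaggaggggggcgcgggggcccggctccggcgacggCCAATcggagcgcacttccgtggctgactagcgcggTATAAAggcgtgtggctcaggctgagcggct
FADD: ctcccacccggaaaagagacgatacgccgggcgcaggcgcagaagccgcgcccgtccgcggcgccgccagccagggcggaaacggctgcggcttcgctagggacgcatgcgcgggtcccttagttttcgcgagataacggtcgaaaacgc
In H2AC17 and in JUNB the first base of TATAAA is at position -31, counted back from the start, and the FADD stretch holds neither motif. JUNB gave 94.4, 122 and 109.9 with DMSO and 265, 274 and 236 with 100 nM THZ2 and rose by 1.25 ± 0.12. Over the 250 bases before the start, on both strands, TATAAA was present in 16 of 88 promoters of genes that rose at least 2-fold (18.2%) and in 54 of 1229 of genes that fell at least 2-fold (4.39%). It was present in 7.58% of the 12920 promoters of tested genes and in 11.1% of the 27305 promoters in the table. The 88 and 1229 promoters are fewer than the 123 and 1433 genes with such changes. Both sets are those of the deposited scale. With spike-in scaling 44 genes rose and 3148 fell at least 2-fold, and the shares of their promoters were not computed. CCAAT was present in 46.6% of the promoters that go with such rises, 36.9% of those that go with such falls and 34.4% of those tested. The median GC content was 65.0% and 64.8% for the rises and falls and 63.6% for all tested. These are matches to letters, given as a description. The 16 risen genes with TATAAA include the histone genes H2AC17, H2AC8, H2BC21, H2BC4, H2BC8 and H3C1, whose probe sets may read several histone genes. A share without the histone genes was not computed. Others are the AP-1 genes FOS and JUNB, the stress cytokine gene GDF15, the chemokine gene CCL20, the heat shock gene HSPA1B and the kinase gene SGK1. FOS gave 58.1, 61.4 and 48.5 with DMSO and 163, 120.3 and 145 with 100 nM THZ2, a rise of 1.35 ± 0.15, and GDF15 gave 141, 184 and 154 with DMSO and 508, 484 and 296 with 100 nM THZ2, a rise of 1.40 ± 0.14.

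The target kinase and its complex come first among the gene lists, which are described by the number of called members and their median. Over all genes 25.4% fell and 28.5% rose with a median of 0.12, against which each count below is to be set. CDK7 had intensities of 471, 419 and 481 with DMSO and 204, 246 and 228 with 100 nM THZ2 and fell by 1.02 ± 0.11 (limma adjusted p = 8.84e-09). The cyclin gene CCNH stood at 0.19 ± 0.11 and MNAT1 at 0.10 ± 0.093, neither past the threshold, although CCNH passed at 0.29 without 100 nM replicate 2. Of 8 TFIIH genes tested 3 fell and 2 rose, or 1 rose without DMSO replicate 1 or 100 nM replicate 1, with a median of 0.15. The core subunit gene GTF2H1 fell by 1.46 ± 0.10, from 445 ± 55.4 to 162 ± 17.2, and the helicase gene ERCC3 fell by 0.91 ± 0.11.

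Of 30 genes of pause release and elongation 10 fell and 7 rose, with a median of -0.20. The 2 kinase genes of productive elongation with the largest falls were CDK13, with intensities of 48.5, 42.2 and 40.5 with DMSO and 12.3, 21.6 and 14.6 with 100 nM THZ2, and CDK9, with 124, 169 and 168 with DMSO and 64, 78.2 and 62.2 with 100 nM THZ2. They changed by -1.47 ± 0.16 and -1.16 ± 0.13, and 1 of the 3 probe sets of CDK9 went the other way, at 0.14. CDK12 fell by 0.70 ± 0.11. Genes of the 7SK particle, which holds CDK9 inactive, went in both directions: MEPCE, its capping enzyme, fell by 1.92 ± 0.13 from 286 ± 42.5 to 76.8 ± 20.0, and HEXIM2 fell by 1.49 ± 0.18. CCNT2, a cyclin partner of CDK9, rose by 1.13 ± 0.12. HEXIM1, the other inhibitor, gave 311, 309 and 263 with DMSO and 396, 458 and 372 with 100 nM THZ2 and rose by 0.47 ± 0.11, a rise that became -0.06 with spike-in scaling.

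Among 32 genes of RNA polymerase II and the initiation factors 12 fell and 7 rose, with a median of 0.057. Without DMSO replicate 1 or 100 nM replicate 2 only 4 rose, and without the former the median was -0.03. GTF2E1, a subunit of TFIIE, which recruits TFIIH, had intensities of 407, 367 and 355 with DMSO and 50.2, 80.4 and 44.0 with 100 nM THZ2. It fell by 2.74 ± 0.16, and each treated array lay several times below each DMSO array. The TFIID subunit genes TAF5 and TAF4 changed by -1.82 ± 0.13 and -1.39 ± 0.16. POLR2A, which encodes the catalytic subunit with the tail that CDK7 phosphorylates, rose by 0.63 ± 0.12, from 194 ± 20.7 to 298 ± 12.4, and its value with spike-in scaling was 0.09.

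In the Mediator complex, which links activators to the polymerase, 16 of 30 genes fell and 4 rose, with a median of -0.62. MED9 gave 113, 105 and 115 with DMSO and 17, 22.2 and 10.5 with 100 nM THZ2 and fell by 2.81 ± 0.17, and MED7 gave 135, 112 and 134 with DMSO and 16.9, 27.9 and 21.1 with 100 nM THZ2 and fell by 2.56 ± 0.14. Both belong to the middle module, and in both the treated arrays lay several times below the DMSO arrays. MED13 of the kinase module fell by 2.38 ± 0.14 with all 5 of its probe sets falling, MED17 of the head fell by 2.0 ± 0.13 and CDK8 fell by 1.09 ± 0.11. MED28 rose by 0.96 ± 0.089, from 57.6 ± 3.64 to 112 ± 8.25.

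Genes of the machinery that ends transcripts fell more often than they rose. Of 34 genes of cleavage, Integrator and termination 18 fell and 5 rose, with a median of -0.36. INTS6, a subunit of the Integrator, which cuts nascent RNA, had intensities of 193, 184 and 168 with DMSO and 18.3, 22.8 and 21.7 with 100 nM THZ2 and fell by 3.12 ± 0.15. Of its 7 probe sets 1 went the other way, at 1.5. CPSF7 and WDR82 changed by -1.79 ± 0.13 and -1.67 ± 0.088. CPSF6, the partner of CPSF7 in the cleavage factor that sets poly(A) site choice, rose by 0.96 ± 0.092, from 528 ± 91.3 to 1021 ± 67.8, and all 5 of its probe sets were higher. Of 22 SR protein and CLK kinase genes of splicing 10 fell and 3 rose, and SRSF3 went from 3609 ± 333 to 1567 ± 138, a change of -1.2 ± 0.078 in which its 6 probe sets shared the direction.

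**Figure D3:**
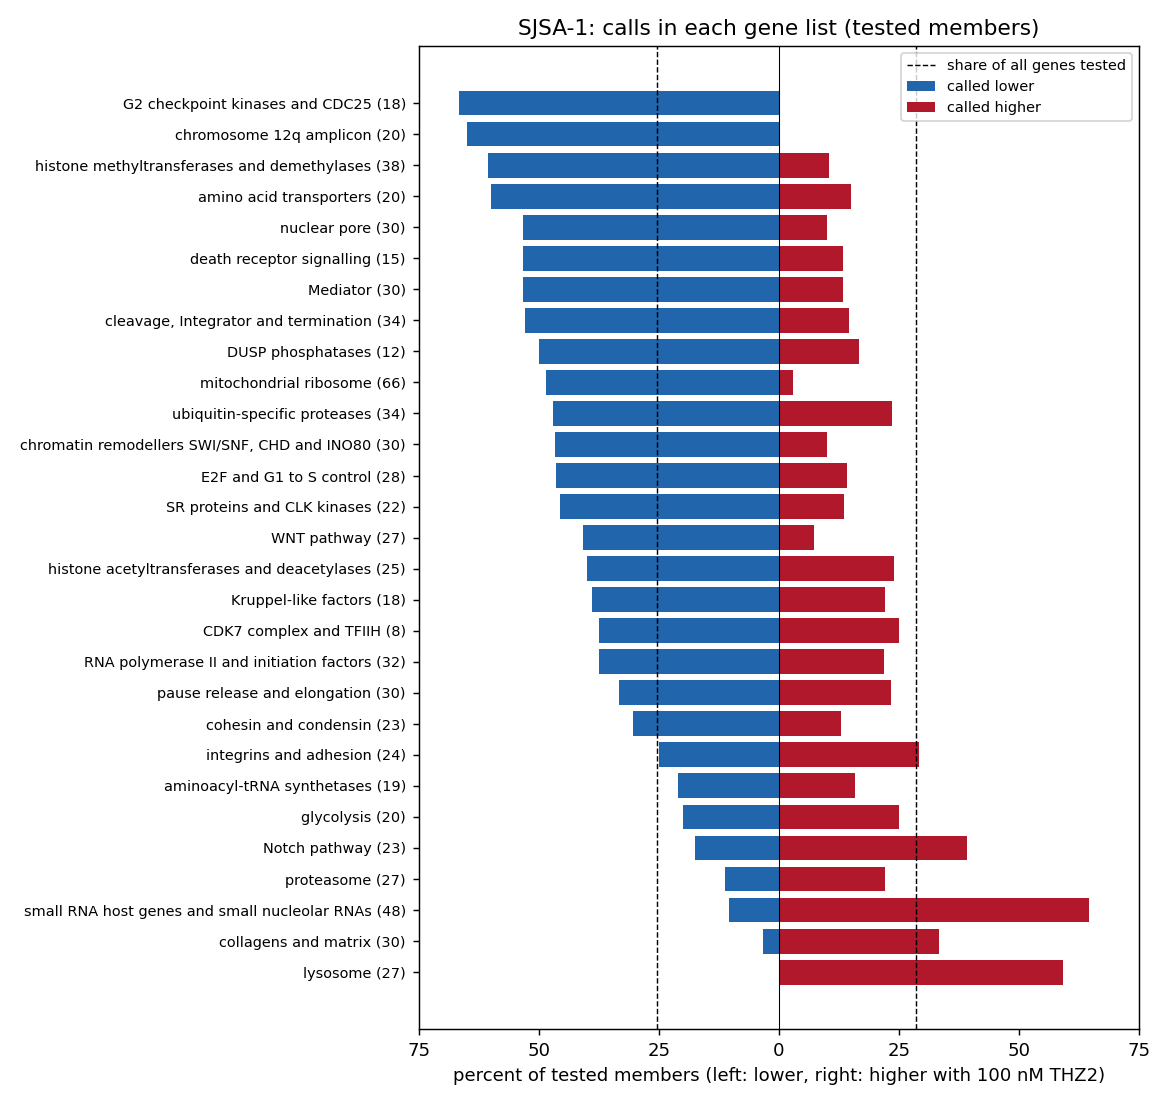
Share of the tested members of each gene list that were called lower (blue, to the left) or higher (red, to the right) with 100 nM THZ2 in SJSA-1; the number of tested members is in parentheses and dashed lines are the shares of all genes tested, 25.4% lower and 28.5% higher. Lists at the top hold the highest shares called lower; the shares called higher are those of the deposited scale, and with spike-in scaling the lysosome list has 0 of 27 higher and the small RNA list 13 of 48.

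Many chromatin genes fell. Of 38 histone methyltransferase and demethylase genes 23 fell and 4 rose, with a median of -0.59. SUV39H1, which methylates lysine 9 of histone H3 in heterochromatin, gave 380.0, 461 and 498 with DMSO and 99.7, 125 and 112 with 100 nM THZ2 and fell by 1.99 ± 0.11 with its 5 probe sets in one direction. SETD1B and KMT2A, which methylate lysine 4, changed by -1.72 ± 0.16 and -1.18 ± 0.14, and the demethylase gene KDM4A fell by 1.48 ± 0.14. KMT5B rose by 1.51 ± 0.10, but 3 of its 5 probe sets went the other way, down to -3.41, and the mean of its probe sets gave -1.22. Of 30 remodeller genes 14 fell and 3 rose, 11 of the falls at least 2-fold. ARID2, of the PBAF complex, had intensities of 105, 85.6 and 71.5 with DMSO and 11.7, 17.5 and 9.58 with 100 nM THZ2 and fell by 2.79 ± 0.18. Its DMSO arrays lay several times above all treated arrays, and its 3 probe sets shared the direction. CHD9, SMARCAD1 and CHD1 changed by -2.20 ± 0.18, -1.91 ± 0.17 and -1.49 ± 0.19, while SMARCA4 and SMARCC1, core subunits of SWI/SNF, did not pass at -0.083 ± 0.11 and -0.033 ± 0.11. Of 25 acetyltransferase and deacetylase genes 10 fell and 6 rose, and KAT5, of the NuA4 complex, went from 353 ± 46.9 to 108 ± 15.5, a change of -1.71 ± 0.10. HDAC8 rose by 1.07 ± 0.10.

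Among the lists, that of the G2 checkpoint held the highest share of falls. Of its 18 genes 12 fell and 0 rose, with a median of -0.86. BORA, which activates PLK1, gave 128, 91.1 and 113 with DMSO and 20.4, 28.6 and 21.4 with 100 nM THZ2 and fell by 2.24 ± 0.16. CCNB1, the cyclin that drives entry into mitosis, gave 1342, 1361 and 1168 with DMSO and 443, 530.1 and 530.1 with 100 nM THZ2 and fell by 1.37 ± 0.075. WEE1, which restrains CDK1, fell by 1.23 ± 0.15, and FBXO5, which restrains the anaphase-promoting complex, fell by 1.07 ± 0.18. The checkpoint kinase genes CHEK1 and CHEK2 did not pass, at -0.18 ± 0.094 and -0.20 ± 0.11. Of 28 genes of E2F and G1 control 13 fell and 4 rose, or 2 rose without 100 nM replicate 3, and 9 of the falls were at least 2-fold. Beside E2F7 and E2F5, the activator E2F3 gave 208, 191 and 169 with DMSO and 31.3, 47.8 and 35.8 with 100 nM THZ2 and fell by 2.32 ± 0.12. CCNE1, the cyclin of S phase entry, fell by 1.5 ± 0.17 and CDC25A, the phosphatase that activates its kinase, fell by 1.65 ± 0.14. The inhibitor CDKN1C rose by 0.87 ± 0.12, and CDKN1A did not pass at -0.023 ± 0.11. Of 23 cohesin and condensin genes 7 fell and 3 rose, and the share that fell, 30.4%, is near that of all genes. The rises were 0 without DMSO replicate 2 or 100 nM replicate 3 and 1 without DMSO replicate 3. NCAPH, of condensin, fell by 2.07 ± 0.089, and MAU2, of the cohesin loader, fell by 1.96 ± 0.12.

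Genes of survival and death also moved. Of 15 genes of death receptor signalling 8 fell and 2 rose, or 1 rose without DMSO replicate 1 or 100 nM replicate 3, with a median of -0.40. Beside FADD, the TNF receptor gene TNFRSF1A had intensities of 300.2, 385 and 357 with DMSO and 57.7, 86.8 and 62.2 with 100 nM THZ2 and fell by 2.35 ± 0.13, with 1 of its 4 probe sets in the other direction, at 0.66. The decoy receptor gene TNFRSF10D gave 89.3, 87.4 and 70.0 with DMSO and 221, 288 and 217 with 100 nM THZ2 and rose by 1.55 ± 0.12. MCL1, an antiapoptotic BCL2 relative with a short-lived mRNA, gave 1428, 1499 and 1168 with DMSO and 488, 639 and 458 with 100 nM THZ2 and fell by 1.38 ± 0.15 (limma adjusted p = 8.77e-09). Of its 6 probe sets 1 went the other way, at 0.41.

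Of 20 tested genes listed for the amplified stretch of chromosome 12q, 13 fell and 0 rose, or 1 rose without DMSO replicate 1, with a median of -0.33. Copy number was not measured here, so which of them are amplified in these cells was not tested. METTL1, a tRNA methyltransferase, had intensities of 1629, 2106 and 2006 with DMSO and 357, 425 and 425 with 100 nM THZ2 and fell by 2.25 ± 0.13. DDIT3, a stress transcription factor, gave 143, 158 and 136 with DMSO and 31.3, 40.8 and 32.7 with 100 nM THZ2 and fell by 2.07 ± 0.13, on both its probe sets. CTDSP2, a phosphatase, fell by 1.13 ± 0.10 from 2871 ± 268 to 1325 ± 258, and YEATS4, a reader of histone marks, fell by 0.81 ± 0.15. MDM2, which degrades p53, gave 1031, 724 and 749.6 with DMSO and 458, 541 and 530.1 with 100 nM THZ2 and fell by 0.70 ± 0.19, with 2 of its 11 probe sets going the other way, and with the mean of its probe sets it did not pass, at -0.26. CDK4, which drives G1, fell by 0.24 ± 0.060, from 7556 ± 628 to 6369 ± 141. The fall thus ranged over the list from -2.25 to small changes, and 7 genes, among them OS9 at 0.077 ± 0.086, did not pass.

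The oncogene MYC went up at this dose. It had intensities of 28.8, 37.3 and 34.3 with DMSO and 81.0, 85.6 and 72.0 with 100 nM THZ2 and rose by 1.25 ± 0.14 (limma adjusted p = 1.43e-08), and all treated arrays lay above all DMSO arrays. It was read by 1 probe set at a low intensity, and with spike-in scaling it did not pass, at 0.72 (limma adjusted p = 0.058). Among the osteoblast and mesenchyme markers, of which 5 of 12 rose and 3 fell, RUNX2, a factor of the bone lineage, gave 120.3, 93.1 and 102 with DMSO and 41.4, 38.9 and 36.3 with 100 nM THZ2 and fell by 1.43 ± 0.19. TWIST1, a mesenchymal factor, fell by 1.34 ± 0.12, while ALPL, the phosphatase of bone mineral, rose by 0.44 ± 0.12, which became -0.093 with spike-in scaling. The rises of this list numbered 3 without DMSO replicate 1 or 100 nM replicate 1 and 0 with spike-in scaling. Among 27 WNT pathway genes 11 fell and 2 rose, or 1 rose without DMSO replicate 3 or 100 nM replicate 1. Beside ZNRF3, the antagonist DKK1 gave 495, 495 and 512 with DMSO and 117, 184 and 140.1 with 100 nM THZ2 and fell by 1.79 ± 0.12, and the ligand gene WNT5B fell by 1.54 ± 0.15. Of 23 Notch pathway genes 9 rose and 4 fell, while 5 rose without DMSO replicate 3 and 1 with spike-in scaling. The ligand gene JAG1 gave 54.2, 47.2 and 50.6 with DMSO and 177, 151 and 159.8 with 100 nM THZ2 and rose by 1.68 ± 0.11, with all 6 probe sets higher, and the target gene HES1 rose by 1.12 ± 0.13. MAML2, a coactivator of Notch, fell by 1.91 ± 0.19. Of 18 Kruppel-like factor and SP genes 7 fell and 4 rose, the latter 1 without DMSO replicate 2 and 2 without 100 nM replicate 2. SP1 fell by 1.86 ± 0.13 from 201 ± 27.9 to 56.1 ± 13.4, and KLF5 rose by 0.87 ± 0.16. Of 12 DUSP phosphatase genes, which switch off MAP kinases, 6 fell and 2 rose, the latter 0 or 1 without any single array, with DUSP16 at -1.47 ± 0.18 and DUSP5 at -0.82 ± 0.13. DUSP6 and DUSP4 did not pass, at -0.18 ± 0.15 and -0.023 ± 0.13.

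Genes of the nuclear pore, the mitochondrial ribosome and amino acid transport fell more often than they rose. Of 30 nuclear pore genes 16 fell and 3 rose, with a median of -0.27. NUP62, of the central channel, gave 719, 923 and 776 with DMSO and 146, 181 and 120.3 with 100 nM THZ2 and fell by 2.45 ± 0.11 on all 4 probe sets. NUP153, of the nuclear basket, fell by 2.13 ± 0.15 from 623 ± 117 to 142 ± 24.3. NUP85, a scaffold subunit, fell by 1.28 ± 0.12. Of 66 mitochondrial ribosomal protein genes 32 fell and 2 rose, the rises 0 to 4 without DMSO replicate 2 or 3 or 100 nM replicate 1 or 3, with a median of -0.22. MRPL46 gave 781, 849 and 936 with DMSO and 242, 324 and 276 with 100 nM THZ2 and fell by 1.61 ± 0.12, and MRPL36 and MRPL49 changed by -1.35 ± 0.079 and -1.32 ± 0.10. Of 20 amino acid transporter genes 12 fell and 3 rose, with SLC38A2 at -1.30 ± 0.12 from 622 ± 94.4 to 251 ± 29.0. Of 34 ubiquitin-specific protease genes 16 fell and 8 rose, or 5 rose without any one of DMSO replicates 1 to 3 and 100 nM replicates 2 and 3. USP20 went from 21.6 ± 6.94 to 6.67 ± 1.02, under the floor, and was at least 1.63-fold lower.

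The remaining lists held few changes of 2-fold or more. Of 27 proteasome genes 3 fell and 6 rose, none by 2-fold. Of 20 glycolysis genes 4 fell and 5 rose, with LDHA and ENO1 not passing at -0.06 ± 0.050 and -0.0067 ± 0.054, and of 19 aminoacyl-tRNA synthetase genes 4 fell and 3 rose. Without DMSO replicate 2 or 3 or 100 nM replicate 1 only 2 glycolysis genes fell, and without DMSO replicate 1 the synthetase genes that rose were 6. Of 27 lysosome genes 16 rose and 0 fell, with a median of 0.21, but with spike-in scaling 0 rose and the median was -0.33. The lysosomal protease gene CTSD gave 229, 256 and 307 with DMSO and 396, 391 and 367 with 100 nM THZ2, a rise of 0.55 ± 0.10 that became 0.02 with spike-in scaling. Of 30 collagen and matrix genes 10 rose and 1 fell on the deposited scale, the fall lost without DMSO replicate 2 or 100 nM replicate 3, and 0 rose with spike-in scaling. SPARC and FN1, abundant matrix genes, did not pass at 0.043 ± 0.064 and -0.013 ± 0.12. Of 24 integrin and adhesion genes 7 rose (29.2%) and 6 fell (25%), shares near those of all genes. With the mean of probe sets 11 of them rose and 1 fell. ITGA2, a collagen receptor subunit, fell by 0.76 ± 0.15.

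The dose of 100 nM lies between 25 and 400 nM, and the 3 doses were compared with each other in SJSA-1. All doses share the DMSO arrays, and the steps share the 100 nM arrays, so their values are set side by side. With 25 nM, 323 genes rose (2%) and 928 fell (5.74%). From 25 to 100 nM, 3321 genes were higher (20.5%) and 3776 lower (23.4%), and from 100 to 400 nM, 2599 were higher (16.1%) and 1967 lower (12.2%). FADD stood at -0.75 ± 0.16 at 25 nM, -3.86 ± 0.16 at 100 nM and -4.70 ± 0.16 at 400 nM, each against DMSO on the log2 scale. ZMIZ1, at -0.26 ± 0.12, -3.45 ± 0.12 and -3.72 ± 0.12, had most of its fall between 25 and 100 nM, and ARID2 stood at 0.21 ± 0.18, -2.79 ± 0.18 and -2.51 ± 0.18. The step from 100 to 400 nM did not pass for ARID2 (limma adjusted p = 0.239).

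Another set of genes fell further between 100 and 400 nM. WEE1 stood at 0.14 ± 0.15 at 25 nM and -1.23 ± 0.15 at 100 nM, and at 400 nM its mean of 9.16 lay under the floor, at least 8.84-fold lower than at 100 nM. The transcription factor gene TFAP2C and SPRY2, a feedback inhibitor of growth factor signalling, had means of 7.02 and 12.3 at 400 nM, also under the floor, and were at least 5.31-fold and 8.19-fold lower than at 100 nM. SPRY2 stood at 0.17 ± 0.13 and -0.36 ± 0.13 at the lower doses. FBXO5 took a step from 100 to 400 nM of -3.66 ± 0.18 and the transcription factor gene ZNF217 one of -3.49 ± 0.14. BAMBI, a decoy receptor of TGF-beta signalling, stood at 0.31 ± 0.11, -0.32 ± 0.11 and -3.39 ± 0.11. MCL1 stood at 0.09 ± 0.15, -1.38 ± 0.15 and -3.02 ± 0.15, a step of -1.64 ± 0.15 above 100 nM. CDK7, at 0.14 ± 0.11, -1.02 ± 0.11 and -1.91 ± 0.11, had the larger part of its fall by 100 nM. At 25 nM the means of these 8 genes all lay above DMSO. The changes of SPRY2 and BAMBI at 100 nM did not pass without single arrays (100 nM replicate 3 for both, at -0.25 and -0.19).

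A further set turned back or changed direction with dose. E2F5 stood at -0.70 ± 0.14 at 25 nM, -3.03 ± 0.14 at 100 nM and -1.07 ± 0.14 at 400 nM, a step up of 1.95 ± 0.14. OSGEPL1, of mitochondrial tRNA modification, stood at -0.83 ± 0.14, -1.47 ± 0.14 and 0.20 ± 0.14, and FASTKD1, of mitochondrial RNA, at -0.44 ± 0.11, -2.45 ± 0.11 and -1.09 ± 0.11. TWIST2, a mesenchymal factor, stood at -0.40 ± 0.14, -2.26 ± 0.14 and -1.01 ± 0.14, with 1 of its 2 probe sets going the other way at 100 nM. MYC stood at 0.31 ± 0.14, which did not pass, 1.25 ± 0.14 and -0.69 ± 0.14, so it was above DMSO at 100 nM and below it at 400 nM. HEXIM1 did likewise on the deposited scale, at 0.81 ± 0.11, 0.47 ± 0.11 and -0.98 ± 0.11. Among the rises, C11orf96 stood at 1.15 ± 0.10, 3.56 ± 0.10 and 1.70 ± 0.10 and SNORA65 at 1.07 ± 0.19, 4.10 ± 0.19 and 3.31 ± 0.19, highest at 100 nM in both. The spike-in means of the 400 nM arrays were 7.84, 9.0 and 7.33 on the log2 scale, a wider spread than at 100 nM. With spike-in scaling 4 genes, in place of 2599, were higher at 400 than at 100 nM. The steps up given here are therefore read on the deposited scale, and their values with spike-in scaling are not given.

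**Figure D4:**
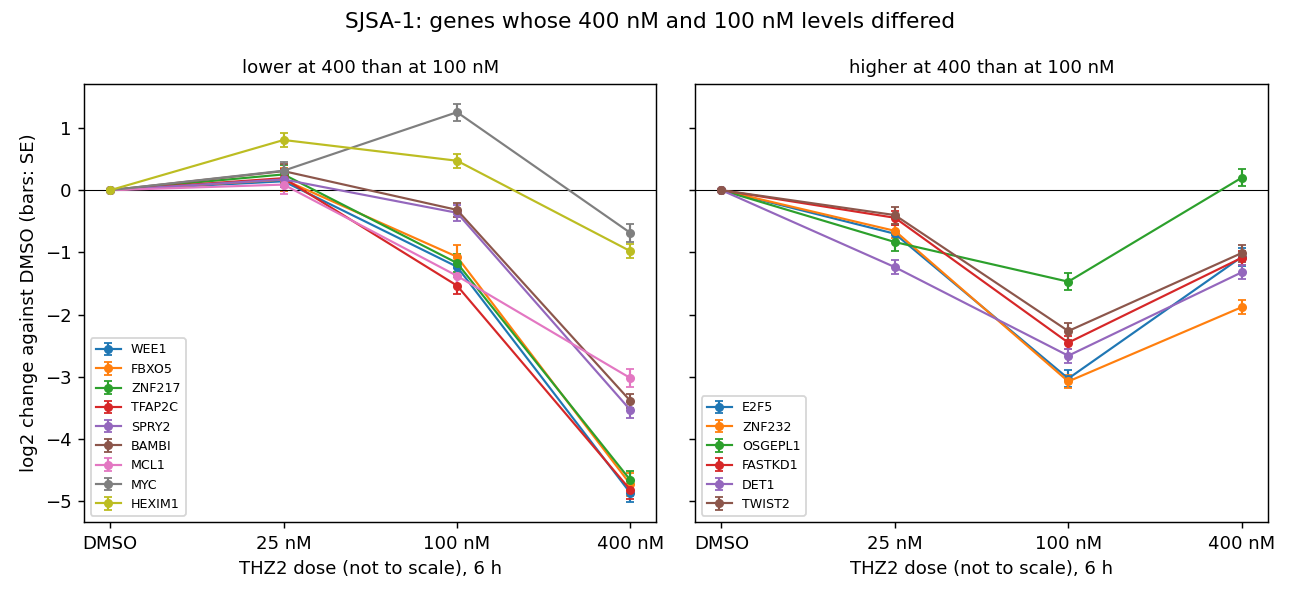
Log2 change against the shared DMSO arrays of SJSA-1 (y axis, bars are the standard error, n = 3 arrays per group) at 25, 100 and 400 nM THZ2 (x axis, not to scale). The left panel holds genes lower at 400 than at 100 nM. In it the 400 nM points of WEE1, TFAP2C and SPRY2 rest on means under the floor, and MYC and HEXIM1 lie above 0 at 100 nM and below it at 400 nM. The right panel holds genes higher at 400 than at 100 nM, such as E2F5 at -3.03 and -1.07. That direction is read on the deposited scale, and with spike-in scaling 4 genes in place of 2599 took it.

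Lists differed in the dose at which their members fell, by counts set side by side with no test of the difference. Of the 12 DUSP genes 0 fell at 25 nM, 6 at 100 nM and 8 at 400 nM, where 25.1% of all genes fell at 400 nM, with medians of 0.063, -0.30 and -1.41. Of the 18 Kruppel-like factor and SP genes 0, 7 and 15 fell, with medians of 0.13, -0.20 and -1.13. Of the 30 genes of pause release and elongation 0, 10 and 20 fell. The 30 Mediator genes gave 4, 16 and 21 falls, with medians of -0.62 at 100 nM and -0.57 at 400 nM. The 38 histone methyltransferase and demethylase genes gave 0, 23 and 24 falls. Of the 12q list 3, 13 and 8 genes fell. The medians of all genes were 0.023, 0.12 and 0.21 at the 3 doses.

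The same dose for the same time was given to U2-OS, and the difference between the lines was tested as a term of the model. The values of the lines were normalized apart, so responses were compared and levels were not. In U2-OS alone 15.5% of genes rose and 21.1% fell. The SJSA-1 response was higher in 965 genes (5.97%) and lower in 1525 (9.43%), and by at least 2-fold in 135 (0.835%) and 345 (2.13%). With spike-in scaling 22 were higher and 66 lower. MYC stood at 1.25 ± 0.14 in SJSA-1 and -0.88 ± 0.14 in U2-OS, a difference of 2.14 ± 0.20 (limma adjusted p = 1.29e-08). NFKBIZ, a regulator of NF-kB targets, went the other way, at -1.30 ± 0.17 and 1.31 ± 0.17, a difference of -2.61 ± 0.24. CDK12 stood at -0.70 ± 0.11 and 0.37 ± 0.11, and PHLDA1, a target of growth signals, at -2.21 ± 0.14 and 0.49 ± 0.14. On the deposited scale these 4 genes passed in opposite directions in the lines. The responses within U2-OS were not computed with spike-in scaling, and the MYC rise in SJSA-1 did not pass with it. CDK7 stood at -1.02 ± 0.11 in SJSA-1 and -0.29 ± 0.11 in U2-OS, a difference of -0.73 ± 0.16 (limma adjusted p = 0.00135), and MCL1 at -1.38 ± 0.15 and -0.48 ± 0.15, a difference of -0.90 ± 0.21.

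Some of the differences rest on genes with little signal in U2-OS. ZIC5 and BNC1, both zinc finger genes, stood at -2.90 ± 0.14 and -2.99 ± 0.13 in SJSA-1, while their U2-OS means lay under the floor with DMSO, at 6.01 ± 0.346 and 5.89 ± 0.156. H2AC17 was under the floor in U2-OS as well, at 7.23 ± 0.858. JPH2, of junctional membranes, stood at -2.70 ± 0.14 in SJSA-1 and 0.029 ± 0.14 in U2-OS, with 2 of its 4 probe sets in SJSA-1 going the other way. IGF2BP1, an mRNA-binding protein, stood at -2.26 ± 0.13 and 0.29 ± 0.13, with 1 of its 3 probe sets in SJSA-1 going the other way. CXCL8, the chemokine interleukin 8, stood at -0.33 ± 0.086 in SJSA-1 and rose by 2.44 ± 0.086 in U2-OS. ST6GALNAC5, a sialyltransferase gene, fell in both lines, at -1.91 ± 0.16 in SJSA-1 and -3.80 ± 0.16 in U2-OS. HEXIM1 rose by 0.47 ± 0.11 and 1.65 ± 0.11, a difference of -1.18 ± 0.16. SNORA84 rose by 3.08 ± 0.14 in SJSA-1 and 0.89 ± 0.14 in U2-OS. CDK9, CDK13 and POLR2A stood at -0.74 ± 0.13, -0.80 ± 0.16 and 1.03 ± 0.12 in U2-OS, and the difference passed for CDK13 (limma adjusted p = 0.0466) and not for CDK9 (0.121) or POLR2A (0.129).

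**Figure D5:**
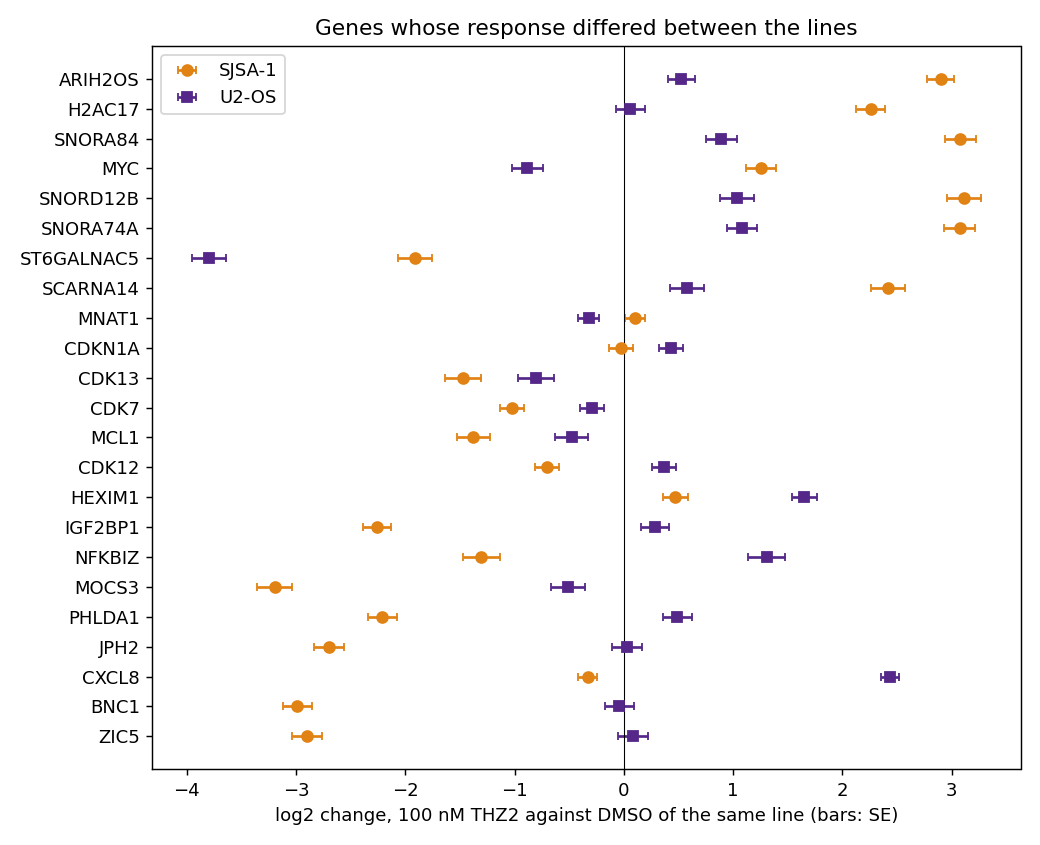
Log2 change with 100 nM THZ2 against DMSO of the same line in SJSA-1 (orange circles) and U2-OS (purple squares) for 23 genes whose response differed between the lines, with the standard error as bars (n = 3 arrays per group). MYC lies above 0 in SJSA-1 and below 0 in U2-OS, NFKBIZ the reverse, and genes at the top have the higher response in SJSA-1, a direction read on the deposited scale.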

How the data were processed

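RNA of 24 samples was measured on PrimeView arrays, 3 in each of 8 groups, grouped by their titles. The deposited values are intensities on a linear scale, which were read as given. MAS5 and RMA were used per the submitters' processing notes, and which of them made these values, and in what version, is not given in the sources used here. All SJSA-1 values are whole hundredths on the log2 scale and the U2-OS values are not, so the lines were taken as normalized apart. Arrays have no read depth, and having 3 of them in a group sets the precision.

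Of 49372 probe sets, 79 were controls, 44988 named 1 gene in the platform annotation, 1832 several and 2473 none. Of those naming 1 gene 44961 matched RefSeq (GRCh38.p14), 0 with a changed symbol. For each gene the brightest probe set by mean log2 intensity was kept. The floor of 12.7 is the 30th percentile of the deposited values, and 16164 of 18132 genes with a group mean at or above it were tested. A linear model with 8 group means was fitted to log2 intensity in limma 3.58.1 (R 4.3.3) with an intensity trend and no replicate block. p-values were adjusted by Benjamini-Hochberg within each contrast, with a threshold of 0.05. Log2 changes carry ± their standard error and intensities ± their SD (n = 3 arrays per group). An exact permutation test of 3 against 3 cannot go below 0.1. Bounds set each array of the dimmer group to at least the floor.

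The members, lists and contrasts were chosen with earlier results of these data known. Named genes are the 15 largest falls and rises with separate groups, 5 falls to and 5 rises from below the floor, fixed genes, up to 5 and 3 members of each list by direction, and the 8 largest in each direction of the dose steps and the line difference. Of the genes this rule names, some are not reported here. Genes of promoters named beside TATAAA, members of lists given for not passing, TIPIN, SRCAP, RPL27A and RPL30 were named outside this rule. Motifs were searched by letters. The model was tested on simulated data. Alternatives were other scalings, filters, pseudocounts and probe set choices, fewer arrays and a replicate block, and gene list counts under each were added after seeing the data.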

Additional observations from a re-analysis of the deposited data

Results flagged for a closer look

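For 23 of the named genes the response to 100 nM THZ2 differed between SJSA-1 and U2-OS by the test of the difference itself in limma, at an adjusted p under 0.05. The values are the SJSA-1 log2 change minus that of U2-OS. Among the fixed genes of transcription, the difference was -0.73 for CDK7, 0.43 for MNAT1, -1.07 for CDK12, -0.67 for CDK13 and -1.18 for HEXIM1. It was 2.14 for MYC, -0.90 for MCL1 and -0.45 for CDKN1A, and neither MNAT1 nor CDKN1A passed within SJSA-1. Among the small RNAs it was 2.19 for SNORA84, 1.84 for SCARNA14, 1.99 for SNORA74A and 2.08 for SNORD12B, the last 2 with DMSO means under the floor in SJSA-1, so that these sizes are not exact. The histone gene H2AC17 differed by 2.20 and ARIH2OS, a transcript named for lying opposite ARIH2, by 2.38. MOCS3 differed by -2.68, ZIC5 by -2.98 and BNC1 by -2.95. The U2-OS means of H2AC17, ZIC5 and BNC1 and the DMSO means of ARIH2OS in both lines lay under the floor, so their responses there were not measured and these differences are not exact. The chemokine gene CXCL8 differed by -2.77, JPH2 by -2.73, PHLDA1 by -2.70, NFKBIZ by -2.61 and IGF2BP1 by -2.55. ST6GALNAC5, which fell in both lines, differed by 1.89. The lines were normalized apart. With spike-in scaling this difference is given only as counts of genes, 22 higher and 66 lower, and not for the genes named here.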

How the results depend on the processing

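In counts of all genes called at 100 nM and in the dose steps, rises depended on spike-in centring more than falls. With it 4540 genes were lower at 100 nM in place of 4101. The line difference lost calls in both directions. With spike-in centring 69 genes were higher in place of 4608, 44 rose at least 2-fold in place of 123, and 3148 fell at least 2-fold in place of 1433. The step from 25 to 100 nM then had 29 genes higher (3321), that from 100 to 400 nM 4 (2599), and the line difference 22 higher (965) and 66 lower (1525). Median centring gave 5010 genes higher in the first step. With only the SJSA-1 arrays 2759 genes were higher at 100 nM, 1960 in the first step and 1227 in the second. Rises of at least 2-fold numbered 80 with the mean of probe sets, 72 with a pseudocount of 16 and 29 with one of 64. Falls of that size numbered 981, 960 and 393 in the same settings, in place of 1433. HEXIM1 turned to -0.063 and ALPL to -0.093 with spike-in centring and KMT5B to -1.22 with the mean of its probe sets. The cause was not tested. Leaving out 1 SJSA-1 array with DMSO or 100 nM at a time gave 3449 to 4475 genes higher and 3732 to 4031 lower, 119 to 140 and 1378 to 1540 at least 2-fold. With the 25 nM, 400 nM or U2-OS arrays left out in turn as well, which was added after seeing the data, the first step gave 2516 to 3608 and 3366 to 3875, the second 1735 to 3780 and 1623 to 2321, and the lines 727 to 1257 and 1239 to 1743. Same-numbered arrays of the groups had deviations that correlated at -0.34, 0.34 and 0.054, so the numbers were not taken as pairs; with the replicate block 4671 genes were higher and 4104 lower. Of 66 counts of list members 31 moved by over 1.5 times with spike-in centring, 19 with only the SJSA-1 arrays, 15 with the mean of probe sets and at most 13 with any other setting.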
